A study of Mus musculus with 60 samples.

Results

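Gene activity was compared between the distal piece of the lower jaw (distal mandible) and the distal piece of the upper jaw (distal maxilla) of mouse embryos at E12.5, E standing for days of embryonic development. The members were taken by their titles: 3 arrays of distal mandible and 3 of distal maxilla, so 6 of the 60 arrays of the series, and all 18193 genes that could be assigned a probe set. Both groups were C57Bl/6 embryos with no mutation or treatment named, both carried the tissue label "Distal bone", and both stood in the batch that the titles number 2. The full series holds distal and proximal pieces of both jaws at 5 ages in daily steps from E10.5 to E14.5, with 3 arrays in each of 20 groups. Total RNA (3 micrograms per array) was labelled with biotin and hybridised to Affymetrix mouse arrays. Proximal mandible and proximal maxilla at E12.5 (also batch 2) and distal mandible and distal maxilla at E11.5 (batch 3), all of the same strain, were used to ask where and when a difference between the jaws held. Whether the arrays within a group represent separate embryos, litters or pools is not stated in the labels. The p-values therefore rest on the spread between arrays of a group, which may be technical. That spread was estimated over all 20 groups of the series, not only over the arrays compared.

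Both jaws grow from the first pharyngeal arch, whose mesenchyme comes largely from cranial neural crest. Lower jaw identity is set by endothelin 1, a peptide made by the arch epithelium and mesoderm, which through its receptor and Mef2c turns on Dlx5 and Dlx6 and, below them, Hand2. Upper jaw mesenchyme lacks that signal and expresses another set of transcription factors, among them Pou3f3, Nr2f1, Irx5 and Foxl2. At this age the first bone and cartilage of the face condense, tooth and whisker placodes form, and muscle precursors enter the jaw and tongue.

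Values are on a log2 scale, where 1 unit stands for a factor of 2, and differences are mandible minus maxilla. Over the 6 arrays the median signal lay between 6.158 and 6.177. Arrays of the same group correlated at 0.9978 to 0.9985 over all genes, against 0.9878 to 0.9882 for arrays of different jaws, and no 2 arrays shared more than 0.5% of their values, so none was a copy of another. The median SD of a gene among 3 arrays was 0.0722 in distal mandible and 0.0649 in distal maxilla at E12.5, within the range of 0.0614 to 0.1441 over the 20 groups. Having 3 arrays per group limits precision. Nothing on the arrays measured absence, so a group mean at or under log2 4.781, the largest of the 60 arrays' lower quartiles, is read as not shown to be present, and a fold against such a group is given as a lower bound. Y-linked Eif2s3y, Kdm5d and Uty were above that limit on all 6 arrays. The X-linked Xist averaged 11.495 in distal mandible and 10.58 in distal maxilla (adjusted p = 0.47 in limma). It measured 11.48, 11.51 and 11.49 in distal mandible, against 10.62, 10.59 and 10.54 in distal maxilla, so its arrays did not overlap. None of the 4 sex-linked transcripts was called in the fit, which took its spread from all 60 arrays. Whether the share of each sex differed between the jaws was not tested.

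At an adjusted p under 0.05 in limma, 4216 genes (23.2% of those tested) differed between the distal jaws: 2236 (12.3%) were higher in distal mandible and 1980 (10.9%) were lower. Of these, 478 (2.63%) differed at least 2-fold, 220 upward (1.21%) and 258 downward (1.42%). The median difference over all genes was 0.01, so the calls in both directions were read against a centre close to 0. The shares of 12.3% higher and 10.9% lower are the base for each count of called list members in this comparison. The 3 arrays of one jaw lay entirely above the 3 of the other for 8184 genes (45.0%). In whole tissue, more cells of a type and more RNA per cell cannot be told apart in any of these differences.

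**Figure D1:**
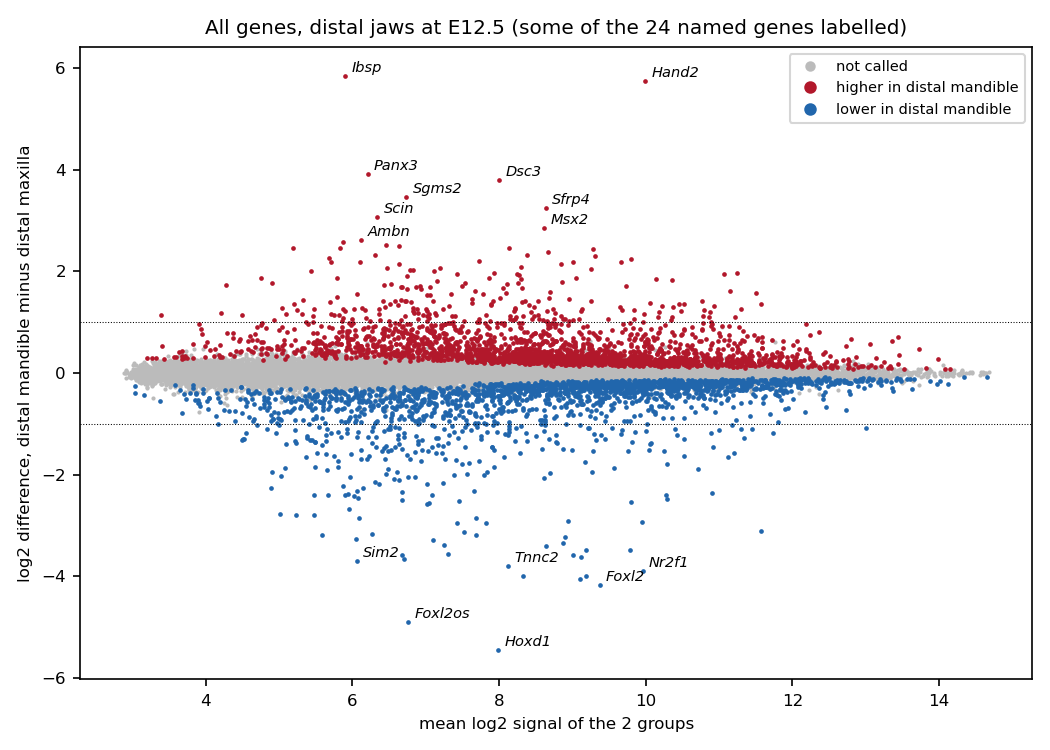
Difference between distal mandible and distal maxilla at E12.5 (vertical, log2, mandible minus maxilla) against the mean log2 signal of both groups (horizontal), 1 point per gene. Called genes are coloured by direction, dotted lines mark a 2-fold difference, and labels stand at some of the genes with the largest differences; Ibsp, measured against a group under the limit of 4.781, and Hand2 lie farthest up and Hoxd1 farthest down.

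Hand2 separated the jaws more widely than any other member of the endothelin, Dlx and Hand cascade. This transcription factor, needed for the ventral identity of the lower jaw, measured 12.90, 12.86 and 12.85 on the distal mandible arrays, against 7.10, 7.07 and 7.19 on the distal maxilla arrays. It was 53.7-fold higher in distal mandible (log2 difference 5.75, SE 0.12, adjusted p = 1.7e-38), and the arrays of each jaw lay close together. Of the 13 measured genes of the cascade, 7 were higher, 2 were lower and 4 were not called. The median was 0.33, against 0.01 over all genes.

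The upstream Dlx genes did not share the size of the Hand2 difference. Dlx5 measured 9.75, 9.80 and 9.78 in distal mandible, against 9.79, 9.76 and 9.78 in distal maxilla, and differed by 0.00 (SE 0.17, adjusted p = 1). Dlx6 measured 8.84, 9.02 and 9.05 in distal mandible, against 8.76, 8.77 and 8.85 in distal maxilla (difference 0.18, SE 0.19, adjusted p = 0.59). The arrays of the 2 jaws overlapped for both genes. With only the 6 arrays compared in the fit, Dlx6 passed the threshold (adjusted p = 0.024). Their neighbouring noncoding transcript Dlx6os1 was lower in distal mandible, at 7.21, 7.29 and 7.26 in distal mandible, against 8.09, 8.09 and 8.05 in distal maxilla (difference -0.82, adjusted p = 6.9e-05).

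The other members moved by about 2-fold or less. Gsc, a homeobox gene downstream of endothelin, was 2.19-fold higher in distal mandible, at 9.44, 9.35 and 9.44 in distal mandible, against 8.26, 8.26 and 8.30 in distal maxilla (adjusted p = 4.7e-05). Dlx3, expressed in distal arch and tooth tissue, was 2.17-fold higher (adjusted p = 2.9e-10), and the transcriptional coactivator Cited1 was 1.78-fold higher (adjusted p = 5.5e-09). The ligand Edn1 was higher by 0.36 (adjusted p = 0.0075), a call lost without distal maxilla replicate 3 (adjusted p = 0.08). Its processing enzyme Ece1 was higher by 0.33 (adjusted p = 3.7e-05), but by 0.09 and not called when the gene's probe sets were averaged. Dlx4 was higher by 0.35 (adjusted p = 0.042), a call lost without any 1 of 5 of the 6 arrays. Gbx2 was at least 1.63-fold lower in distal mandible, where it was not shown to be present. Hand1 (difference 0.16) and Rgs5 (0.31) were not called. Another probe set of Rgs5 was called higher by 0.57, at 7.04 in distal mandible and 6.47 in distal maxilla (adjusted p = 0.00068 in limma over all probe sets).

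Genes known for the upper jaw and palate ran the other way. Of 17 measured, 14 were lower in distal mandible, 1 was higher and 2 were not called, with a median of -1.17. Foxl2, a forkhead factor of maxillary mesenchyme, measured 7.41, 7.29 and 7.15 in distal mandible, against 11.41, 11.43 and 11.54 in distal maxilla, which is 18.1-fold lower (difference -4.18, SE 0.09, adjusted p = 1.6e-36). Its antisense transcript Foxl2os measured 4.36, 4.09 and 4.48 in distal mandible, not shown to be present, against 9.21, 9.19 and 9.24 in distal maxilla, at least 21.6-fold lower in mandible. Both genes lie on chromosome 9 and neither had overlapping arrays.

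The nuclear receptor Nr2f1 measured 7.98, 7.91 and 8.15 in distal mandible, against 11.94, 11.92 and 11.84 in distal maxilla, which is 14.8-fold lower (adjusted p = 2.2e-22). Its relative Nr2f2 was 3.08-fold lower (adjusted p = 1.3e-17). Meox2, a homeobox gene of palate and muscle precursors, measured 7.24, 7.18 and 7.18 in distal mandible, against 10.58, 10.54 and 10.53 in distal maxilla, 10.2-fold lower. Arrays of the jaws were more than 1 log2 unit apart for each of these 3 genes.

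Smaller differences in the same direction covered most of the remaining regulators. In distal mandible Shox2, a palate homeobox gene, was 2.97-fold lower, Irx5 2.60-fold, Six2 2.44-fold, Irx3 2.26-fold, the palate oncogene homologue Mn1 2.16-fold, and Pou3f3 2.15-fold lower, with adjusted p-values of 5.2e-07 or smaller. Tbx22, mutated in X-linked cleft palate, was 2.11-fold lower (adjusted p = 0.00014), and Osr2, needed for palate growth, was lower by 0.84 (adjusted p = 0.00086). Meox1 was lower by 0.46 (adjusted p = 0.021). Osr1 alone was higher, at 12.12, 12.13 and 12.10 in distal mandible, against 11.64, 11.60 and 11.60 in distal maxilla (difference 0.50, adjusted p = 0.019). The Osr1 and Meox1 calls were each lost without 1 array in 3 of the 6 omissions (Osr1 without distal mandible replicate 2 or distal maxilla replicate 2 or 3, Meox1 without distal mandible replicate 1 or 2 or distal maxilla replicate 1). Cyp26a1 (difference -0.25) and Eya1 (-0.11) were not called.

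**Figure D2:**
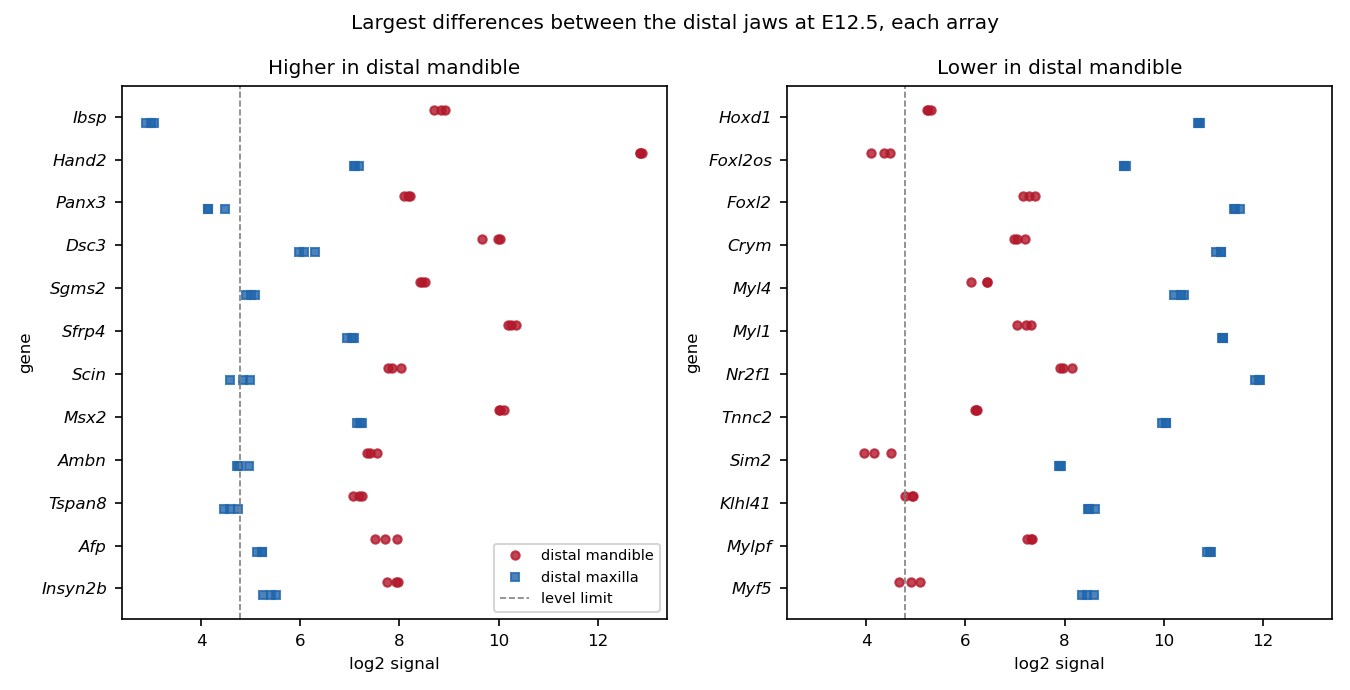
Log2 signal on each array for the 12 called genes of largest difference per direction; circles are the 3 distal mandible arrays, squares the 3 distal maxilla arrays, and the dashed line is the limit of 4.781. Arrays of the jaws do not overlap for any gene drawn, which the choice of genes required, and Ibsp, Panx3 and Tspan8 lie under the limit in maxilla and Foxl2os and Sim2 in mandible.

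Mesenchymal factors shared by both jaws also differed in level. Of 17 measured, 9 were higher and 2 lower in distal mandible (median 0.22). Msx2, a homeobox target of Bmp signalling, measured 10.004, 10.03 and 10.10 in distal mandible, against 7.14, 7.20 and 7.24 in distal maxilla, 7.23-fold higher (SE 0.22, adjusted p = 1.5e-14). Its relative Msx1 was 2.39-fold higher (adjusted p = 1.7e-05). Pitx1, a factor of the lower jaw and hind limb, measured 10.75, 10.77 and 10.78 in distal mandible, against 8.55, 8.57 and 8.59 in distal maxilla, 4.57-fold higher. The paired box genes split: Pax3 was 2.59-fold higher in distal mandible, whereas Pax7, at 5.05, 4.91 and 4.12 there against 7.76, 7.83 and 7.95 in distal maxilla, was at least 8.38-fold lower.

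Tooth genes were split in direction as well: 8 of 21 were higher, 6 were lower and 7 were not called, with a median of 0.04. Isl1, an epithelial factor of the incisor field, measured 8.83, 9.02 and 8.91 in distal mandible, against 6.99, 6.90 and 6.97 in distal maxilla, 3.92-fold higher (adjusted p = 1.2e-14). Bmp4, which marks the distal incisor domain, was 3.07-fold higher at 11.92, 11.98 and 11.98 in distal mandible, against 10.32, 10.34 and 10.36 in distal maxilla. The Bmp antagonist Sostdc1 was 2.69-fold higher (adjusted p = 3.6e-15) and Lhx8 1.47-fold higher. Barx1, which marks the proximal molar domain, was 5.29-fold lower in distal mandible, at 9.10, 9.02 and 9.11 in distal mandible, against 11.44, 11.51 and 11.49 in distal maxilla. Dlx1, which with Dlx2 patterns the upper molars, was 3.36-fold lower (adjusted p = 2.3e-15). Ambn encodes ameloblastin, a protein of enamel matrix, and measured 7.54, 7.34 and 7.41 in distal mandible, against 4.72, 4.75 and 4.97 in distal maxilla, 6.12-fold higher (adjusted p = 1.1e-11).

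Bone genes included some that were detected in distal mandible and not shown to be present in distal maxilla. Ibsp, the bone sialoprotein of mineralising matrix, measured 8.92, 8.84 and 8.70 in distal mandible, against 2.89, 3.04 and 2.98 in distal maxilla, where it was not shown to be present, so it was at least 16.5-fold higher (adjusted p = 8.5e-22). Panx3, a channel protein of osteoblasts and chondrocytes, measured 8.22, 8.09 and 8.18 in distal mandible, against 4.48, 4.14 and 4.14 in distal maxilla, at least 10.4-fold higher. Of 13 measured bone genes 6 were higher and 0 were lower, with a median of 0.36. In fits limited to the 6 arrays or to batch 2, 1 was lower. Where a list is given with 0 genes called in a direction between the distal jaws at E12.5, the count in limma at an unadjusted p under 0.05 was also 0.

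The 6 included Sp7, the osteoblast transcription factor osterix, at 9.21, 9.18 and 9.30 in distal mandible, against 7.38, 7.37 and 7.38 in distal maxilla (3.61-fold, adjusted p = 3.7e-13). Alpl, the phosphatase that frees phosphate for mineral, was 4.62-fold higher, the small proteoglycan Omd 4.10-fold and the osteoblast membrane protein Ifitm5 3.25-fold higher. The collagen I genes did not follow: Col1a1 differed by 0.07 (adjusted p = 0.89) and Col1a2 by -0.05 (adjusted p = 0.80), genes chosen after their values were seen. Among the defining markers of the tissue that the labels name, Dmp1 of osteocytes and Mmp13 were not shown to be present in either group, and Ibsp and Panx3 were not in distal maxilla.

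A further 3 genes among those with the largest differences were also high in distal mandible. Sgms2, a sphingomyelin synthase, was 11.0-fold higher at 8.52, 8.45 and 8.42 in distal mandible, against 5.09, 4.90 and 5.01 in distal maxilla. Scin, an actin-severing protein, was 8.42-fold higher at 8.02, 7.84 and 7.77 in distal mandible, against 4.58, 4.98 and 4.85 in distal maxilla. Insyn2b was 5.65-fold higher at 7.93, 7.98 and 7.75 in distal mandible, against 5.25, 5.41 and 5.50 in distal maxilla. The jaws were separated by more than 2 log2 units in each.

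Cartilage genes were higher as a group count: 15 of 22 were higher in distal mandible and 1 was lower, with a median of 1.23. Col9a1, a collagen of cartilage fibrils, was 3.86-fold higher at 12.07, 12.03 and 12.04 in distal mandible, against 10.13, 10.04 and 10.12 in distal maxilla (adjusted p = 5.4e-15). The matrix protein Matn4 was 5.51-fold higher (adjusted p = 5.2e-10) and Acan, the large proteoglycan aggrecan, was 4.19-fold higher (adjusted p = 3.4e-09). Col9a3 was 3.81-fold higher and the ubiquitin ligase Wwp2 2.32-fold higher. Sox9, the transcription factor that starts chondrogenesis, measured 9.12 in distal mandible and 9.09 in distal maxilla as group means and was not called (adjusted p = 0.91); it was chosen after its values were seen. The member that ran the other way was Epyc, a small proteoglycan, 2.56-fold lower in distal mandible (adjusted p = 1.2e-08). Among tendon genes 4 were higher and 5 lower of 14, with Scx, the tendon progenitor factor, 2.75-fold lower (adjusted p = 2e-13).

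Surface epithelium genes were higher in distal mandible for 15 of 18, with 0 lower and a median of 0.97. The 3 arrays of distal mandible lay above the 3 of distal maxilla for all 18, against 45.0% of all genes separated in either direction. The summed linear signal of the list ran from 27480 to 27590 in distal mandible, against 12770 to 13020 in distal maxilla. Grhl3, a factor of epidermal barrier formation, measured 8.34, 8.31 and 8.40 in distal mandible, against 6.53, 6.63 and 6.76 in distal maxilla (3.27-fold, adjusted p = 2.1e-16). The desmosomal plaque protein Dsp was 2.97-fold higher, the p63 target Perp 2.58-fold, the splicing regulator Esrp1 2.48-fold, Trp63, the master gene of stratified epithelium, 2.31-fold, and Epcam 1.82-fold higher.

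Dsc3, a desmosomal cadherin of stratified epithelium on chromosome 18, gave a larger difference than any member of that list. It measured 10.03, 9.99 and 9.67 in distal mandible, against 6.07, 5.96 and 6.29 in distal maxilla, 13.9-fold higher (SE 0.23, adjusted p = 1.6e-18). Tspan8, a tetraspanin of epithelia, was at least 5.20-fold higher at 7.18, 7.25 and 7.05 in distal mandible, against 4.75, 4.57 and 4.45 in distal maxilla. Of the whisker and hair placode genes 6 of 14 were higher and 1 lower. The lower one was Lhx2, at 3.88, 4.22 and 4.14 in distal mandible, where it was not shown to be present, against 6.91, 6.87 and 6.85 in distal maxilla (at least 4.27-fold). How far the higher epithelial level bears on other genes that epithelium also expresses, Shh and Isl1 among them, was not tested.

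Skeletal muscle genes had the largest share of called members of the 31 lists (95.5%). Of 22 measured, 21 were lower in distal mandible, against 10.9% of all genes, and 0 were higher, with a median of -3.16. The arrays of the jaws did not overlap for any of the 22, against 45.0% of all genes without overlap. The summed linear signal of the list ran from 3459 to 3623 in distal mandible, against 29480 to 30110 in distal maxilla. Pitx3 was the member not called (difference -0.34, adjusted p = 0.07).

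The myogenic factors were low in distal mandible. Myf5, the first of them to be expressed, measured 4.66, 4.90 and 5.08 in distal mandible, against 8.46, 8.35 and 8.59 in distal maxilla (difference -3.59, SE 0.28, adjusted p = 7.2e-15). Myog, which drives differentiation, measured 7.22, 7.29 and 7.37 in distal mandible, against 10.48, 10.57 and 10.502 in distal maxilla (9.35-fold lower, adjusted p = 8.5e-22). Myod1 was 4.97-fold lower at 6.13, 6.80 and 6.54 in distal mandible, against 8.87, 8.74 and 8.81 in distal maxilla. For each factor all distal mandible arrays lay more than 1 log2 unit below the distal maxilla arrays.

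Contractile genes differed by similar amounts. Myl1, a fast myosin light chain, measured 7.05, 7.21 and 7.32 in distal mandible, against 11.19, 11.18 and 11.19 in distal maxilla (15.9-fold lower, adjusted p = 7.9e-14). Myl4, the embryonic light chain, was 16.0-fold lower at 6.43, 6.11 and 6.43 in distal mandible, against 10.22, 10.34 and 10.41 in distal maxilla. Tnnc2, the calcium sensor of fast muscle, was 13.9-fold lower at 6.23, 6.19 and 6.22 in distal mandible, against 9.96, 10.05 and 10.04 in distal maxilla. These 3 lay above the limit on every array of both jaws. Mylpf was 12.2-fold lower (7.35, 7.33 and 7.25 in distal mandible, against 10.87, 10.94 and 10.95 in distal maxilla), Klhl41, a sarcomere assembly protein, 12.6-fold lower (4.78, 4.93 and 4.93 in distal mandible, against 8.50, 8.48 and 8.62 in distal maxilla), the troponin Tnnt1 7.64-fold lower and Mymx, a protein of myoblast fusion, 9.69-fold lower. The genes next in rank among those lower in distal mandible were Tnnc1, Tnnt2, Myh3, Acta1, Tnni1, Ttn, Meox2, Mymx, Tceal7, Myog, Smpx, Synpo2l, Pax7, Mybph and Actc1, most of them also muscle genes.

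**Figure D3:**
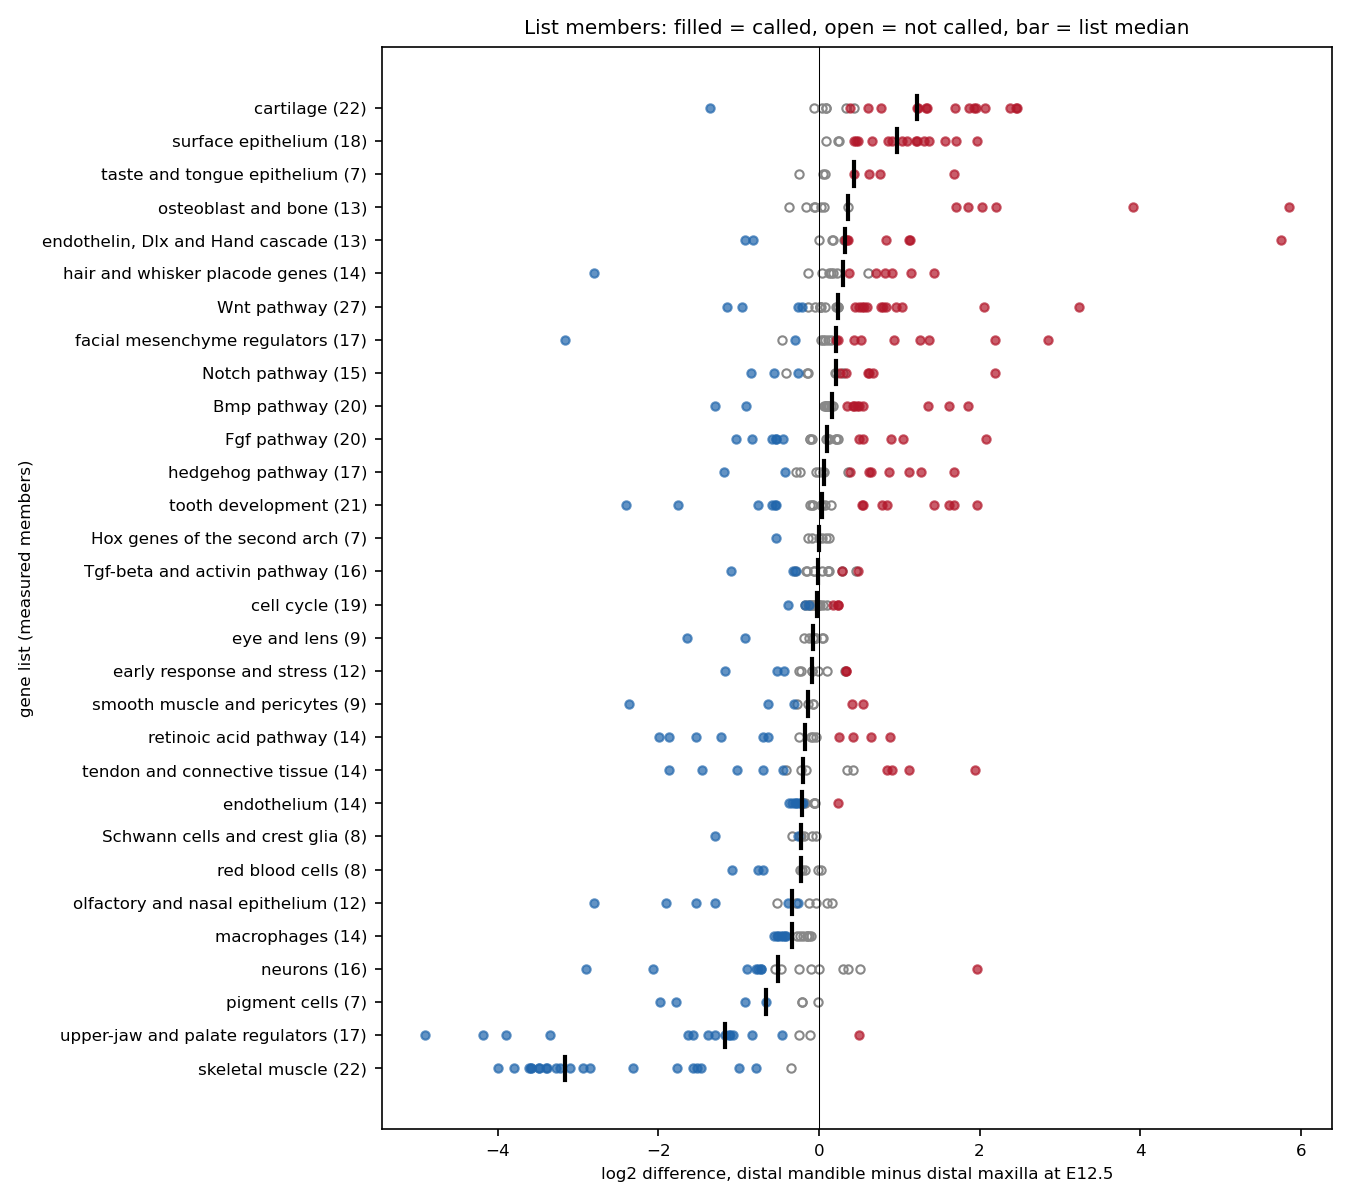
Log2 difference between distal mandible and distal maxilla at E12.5 (horizontal) for each measured member of 30 gene lists, ordered by list median (black bar), with the number measured in brackets. Filled points are called, red to the right of 0 for higher and blue to the left for lower, and open points are not called; cartilage and surface epithelium lie at the top, and upper-jaw regulators and skeletal muscle at the bottom.

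Promoter sequences are shown for Hand2 and Ibsp, each the most raised by measured difference in its list, and for 3 contractile genes that fell together, so that the E-box (CANNTG, the core bound by basic helix-loop-helix factors such as Hand2, Myf5, Myod1 and Myog) can be seen in place. Each is the 250 bases before the RefSeq start site on the gene's strand in GRCm38.p6, with E-boxes in capitals. They lie at chr8:57320733-57320982 (plus strand, Hand2), chr5:104299037-104299286 (plus, Ibsp), chr1:66945057-66945306 (minus, Myl1), chr7:127211358-127211607 (plus, Mylpf) and chr2:164779735-164779984 (minus, Tnnc2).
Hand2: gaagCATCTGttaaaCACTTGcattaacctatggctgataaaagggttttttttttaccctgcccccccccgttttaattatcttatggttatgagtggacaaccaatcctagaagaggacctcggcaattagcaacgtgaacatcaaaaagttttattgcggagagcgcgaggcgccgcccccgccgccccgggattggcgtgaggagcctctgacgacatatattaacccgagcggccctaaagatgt
Ibsp: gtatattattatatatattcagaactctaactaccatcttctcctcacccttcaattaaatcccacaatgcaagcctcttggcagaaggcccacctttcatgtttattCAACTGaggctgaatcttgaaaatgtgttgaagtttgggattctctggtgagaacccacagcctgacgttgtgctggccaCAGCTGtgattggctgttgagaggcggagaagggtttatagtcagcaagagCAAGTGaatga
Myl1: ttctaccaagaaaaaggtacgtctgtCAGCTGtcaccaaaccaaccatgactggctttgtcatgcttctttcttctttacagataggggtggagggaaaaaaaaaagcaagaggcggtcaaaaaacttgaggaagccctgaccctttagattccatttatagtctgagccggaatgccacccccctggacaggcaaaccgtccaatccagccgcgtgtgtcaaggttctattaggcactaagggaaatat
Mylpf: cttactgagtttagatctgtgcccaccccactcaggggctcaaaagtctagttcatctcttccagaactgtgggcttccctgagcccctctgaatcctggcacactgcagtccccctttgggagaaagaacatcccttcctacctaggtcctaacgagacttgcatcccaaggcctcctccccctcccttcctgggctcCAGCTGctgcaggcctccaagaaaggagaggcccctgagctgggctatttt
Tnnc2: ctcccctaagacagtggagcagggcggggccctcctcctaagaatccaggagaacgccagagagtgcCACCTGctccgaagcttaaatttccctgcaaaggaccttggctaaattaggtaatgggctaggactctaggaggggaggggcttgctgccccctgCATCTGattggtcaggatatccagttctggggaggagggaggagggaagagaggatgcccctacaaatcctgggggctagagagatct
Hand2 held 2 E-boxes, Ibsp 3, Myl1 1, Mylpf 1 and Tnnc2 2. The form CAGCTG, 1 of the CANNTG sequences, began at position -62 of Ibsp, -224 of Myl1 and -51 of Mylpf, where -1 is the last base before the start site. Of 22 measured muscle genes 18 had a window, and CANNTG was found for 16 of them (88.9%) and CAGCTG for 7 (38.9%), against 66.2% and 13% of all 32851 windows of that length. For the bone list 8 of 10 genes (80%) held CANNTG and 3 (30%) held CAGCTG. Both motifs read the same on either strand, and a match describes these letters only. A gene with several windows counted once if any held the motif. The list shares are thus per gene and the share of all windows is per window. These are unlike measures, because a gene with several windows has more chances of a match, so no excess was read from them.

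Signalling genes differed in both directions, with more higher than lower for hedgehog (7 higher and 2 lower of 17), Bmp (9 and 2 of 20), Wnt (12 and 4 of 27) and Notch (6 and 3 of 15). Shh, the hedgehog ligand of oral epithelium, measured 9.15, 9.19 and 9.13 in distal mandible, against 7.36, 7.69 and 7.38 in distal maxilla (3.21-fold higher, adjusted p = 4.4e-08). The hedgehog targets Gli1, Ptch1 and Hhip were higher by 0.65, 0.62 and 1.13, and Foxf2, also a target, by 1.27, whereas Foxc1 was 2.28-fold lower. Hhip binds the ligand outside the cell and Ptch1 is its receptor, so higher members included both target genes and antagonists. For hedgehog, Bmp, Wnt and Notch the list medians were 0.06, 0.17, 0.24 and 0.21. The shares of members called were 52.9%, 55%, 59.3% and 60%, against 23.2% of all genes (12.3% higher and 10.9% lower).

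Among Bmp and Wnt genes, ligands, receptors and inhibitors all included called members. Bambi, a pseudoreceptor that dampens Bmp signalling, was 3.62-fold higher at 11.04, 11.09 and 11.05 in distal mandible, against 9.17, 9.18 and 9.27 in distal maxilla (adjusted p = 2.2e-22). Bmp5 was 2.56-fold higher, the Bmp target Id1 1.34-fold higher, the receptor Bmpr1b 2.45-fold lower and the joint ligand Gdf5 1.87-fold lower. Sfrp4, a secreted Wnt antagonist, measured 10.19, 10.24 and 10.34 in distal mandible, against 6.93, 7.08 and 7.04 in distal maxilla, 9.45-fold higher (adjusted p = 7.3e-13). The antagonists Wif1 and Frzb were 4.15-fold and 1.74-fold higher, but Sfrp2 was 1.94-fold lower, and the ligand Wnt11 was 2.21-fold lower. Among Notch genes Hey2, a target repressor, was 4.57-fold higher at 10.26, 10.12 and 9.95 in distal mandible, against 7.92, 7.88 and 7.96 in distal maxilla, Hey1 1.60-fold, Notch1 1.53-fold and the ligand Jag1 1.54-fold higher, and the ligand Dll1 1.79-fold lower.

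Fgf genes were nearly even, with 5 higher and 6 lower of 20 and a median of 0.10. The receptors were higher, Fgfr3 by 4.24-fold (9.35, 9.40 and 9.25 in distal mandible, against 7.31, 7.16 and 7.29 in distal maxilla, adjusted p = 4.7e-12), Fgfr2 by 1.86-fold and Fgfr1 by 1.46-fold. The feedback genes Spry2, Il17rd and Dusp6, which Fgf signalling switches on, were lower by 2.04-fold, 1.78-fold and 1.45-fold. Retinoic acid genes had 4 higher and 6 lower of 14, with a median of -0.17. The enzymes that make retinoic acid were lower in distal mandible, Aldh1a3 by 3.99-fold (6.42, 6.69 and 6.57 in distal mandible, against 8.54, 8.59 and 8.54 in distal maxilla) and Aldh1a2 by 2.89-fold, as was the receptor Rarb by 2.34-fold. Rdh10, which makes their substrate, was 1.56-fold higher (adjusted p = 1.1e-07). Of 16 Tgf-beta and activin genes 2 were higher and 3 lower, and Tgfbi, a matrix protein induced by Tgf-beta, was 2.14-fold lower. That list had 31.2% of its members called, nearer the 23.2% of all genes than the Fgf (55%) and retinoic acid (71.4%) lists.

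Some of the largest negative differences lay outside these lists. Hoxd1, a homeobox gene on chromosome 2, measured 5.31, 5.24 and 5.23 in distal mandible, against 10.73, 10.71 and 10.69 in distal maxilla, 43.8-fold lower (SE 0.29, adjusted p = 1e-20). Crym, a thyroid hormone binding protein, was 16.6-fold lower at 7.21, 7.04 and 6.99 in distal mandible, against 11.06, 11.15 and 11.16 in distal maxilla. Sim2, a basic helix-loop-helix factor, was at least 8.74-fold lower at 3.96, 4.50 and 4.15, not shown to be present, against 7.89, 7.92 and 7.92 in distal maxilla. The jaws were separated by more than 3 log2 units in each. By contrast, a list of Hox genes of the second and more posterior arches had 0 higher and 1 lower (Hoxd3) of 7 measured, with a median of 0.00. Absence of these genes marks the first arch, but only 2 of the 7 were under the limit in both distal jaws.

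Markers of the remaining cell types had list medians nearer 0 than muscle, cartilage or surface epithelium. Of all genes, 23.2% were called, 12.3% higher and 10.9% lower in distal mandible. The crest glia (25% called) and eye and lens (22.2%) lists lay close to that share, so their counts do not stand out. Neuron genes had 1 higher and 7 lower of 16, with the neurofilaments Nefl 7.49-fold and Nefm 4.17-fold lower in distal mandible. Pigment cell genes had 4 lower of 7 and 0 higher, with Dct, an enzyme of melanin synthesis, 3.96-fold lower (5.54, 5.65 and 5.23 in distal mandible, against 7.28, 7.47 and 7.62 in distal maxilla). Macrophage genes had 7 lower of 14 and 0 higher, the largest being Tyrobp at -0.56 and the smallest difference in the list -0.10. Endothelial genes had 7 lower and 1 higher of 14, between -0.37 and 0.23. The embryonic globin Hbb-bh1 was 2.12-fold lower at 12.44, 12.47 and 12.46 in distal mandible, against 13.54, 13.56 and 13.54 in distal maxilla, among 3 lower of 8 red cell genes. The smooth muscle actin Acta2, also used by early skeletal muscle, was 5.14-fold lower, while a second, dim probe set of the gene ran 0.37 the other way. Nasal epithelium genes had 6 lower of 12, with Lhx2, Neurod1 and Sp8 not shown to be present in distal mandible. Cell cycle genes had 3 higher and 3 lower of 19, none by more than 0.38, and taste and tongue epithelium genes 4 higher of 7. Smooth muscle and pericyte genes had 2 higher and 3 lower of 9, crest glia genes 0 higher and 2 lower of 8, eye and lens genes 0 higher and 2 lower of 9, and early response and stress genes 2 higher and 3 lower of 12.

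Afp, the fetal serum protein made by yolk sac and liver, was among the 12 most raised genes. It measured 7.70, 7.51 and 7.95 in distal mandible, against 5.23, 5.22 and 5.12 in distal maxilla, 5.77-fold higher (SE 0.31, adjusted p = 4.1e-09). The genes next in rank among those higher in distal mandible were Matn4, Aqp4, Matn1, Rtl3, Cnmd, Dsc2, Gpr50, Lgi2, Dsg2, Alpl, Pitx1, Hey2, Tnfsf11, Ptger2 and Cacna2d3.

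Whether a jaw difference belonged to the distal piece was tested by subtracting the proximal jaw difference at the same age, all in batch 2. The proximal jaws differed for 7938 genes (43.6%), 4906 (27.0%) higher and 3032 (16.7%) lower in mandible. The distal and proximal differences were themselves unequal for 6069 genes (33.4%), 2542 (14.0%) with a more positive difference distally and 3527 (19.4%) with a more negative one. Msx2 differed by 2.85 in the distal jaws and -1.22 in the proximal jaws, a difference of 4.07 (adjusted p = 4.8e-15), so mandible was higher distally and lower proximally. Hand2 was higher in mandible in both pieces, by 5.75 distally and 2.43 proximally, and the gap of 3.31 was called (adjusted p = 5.5e-22). Sfrp4 differed by 3.24 distally and was not called proximally (-0.53, difference of differences 3.77, adjusted p = 1.1e-10).

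Skeletal muscle turned over between the pieces. In the proximal jaws 19 of the 22 muscle genes were higher in mandible, with a median of 1.05, and the distal minus proximal value was negative and called for all 22 (median -4.20). Over all genes 27.0% were higher in proximal mandible and 19.4% had a negative distal minus proximal value that was called. Myl1 averaged 7.19 in distal mandible and 11.19 in distal maxilla, but 12.03 in proximal mandible and 11.05 in proximal maxilla. Macrophage genes turned in the same sense: 9 of 14 were higher in proximal mandible, and all 14 had a negative distal minus proximal value that was called (median -0.76). Of the upper-jaw regulators, 16 of 17 had a more negative difference distally (median -1.28). In the proximal jaws 7 were higher and 4 lower in mandible. Nr2f1 was 11.98 in proximal mandible and 11.86 in proximal maxilla (difference 0.11, adjusted p = 0.68).

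Bone, cartilage and epithelium were alike in direction in both pieces. Cartilage had 18 of 22 genes higher in proximal mandible (median 1.10), surface epithelium 17 of 18 (0.88) and bone 9 of 13 (0.78), against 27.0% of all genes. The distal minus proximal values of these lists had medians of -0.08, 0.03 and 0.06. Called in either direction were 6 of 22, 11 of 18 and 5 of 13 members, against 33.4% of all genes. In surface epithelium 5 genes were more positive and 6 more negative distally, so a median near 0 there covers unequal differences. Panx3 averaged 8.17 in distal mandible and 7.45 in proximal mandible and was not shown to be present in either maxilla piece, so its jaw differences are bounds and are not compared. For neurons the proximal jaws set the contrast: all 16 genes were lower in proximal mandible (median -3.66) and 15 had a positive distal minus proximal value.

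**Figure D4:**
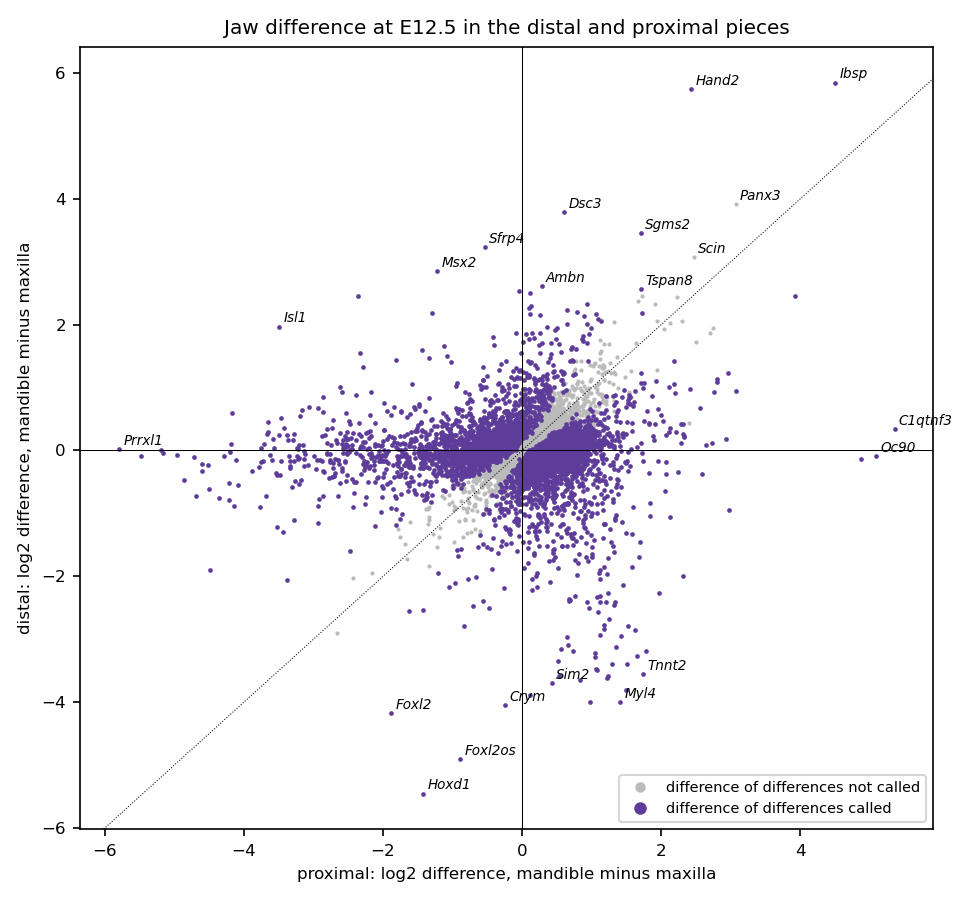
Jaw difference at E12.5 in the distal pieces (vertical) against the proximal pieces (horizontal), both log2 mandible minus maxilla, 1 point per gene, with the dotted line marking equal differences. Purple points are genes whose 2 differences were called unequal, and labels stand at some of the named genes; Myl4 and Tnnt2 lie low on the right, Isl1 and Msx2 high on the left.

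The same contrast at E11.5, a day earlier, showed which distal differences were already there. At E11.5 the distal jaws differed for 4681 genes (25.7%), 2631 (14.46%) higher and 2050 (11.3%) lower in mandible. The difference at E12.5 was unlike that at E11.5 for 4531 genes (24.9%): 2192 (12%) more positive and 2339 (12.9%) more negative at E12.5. With every array centred on its median that split was 2938 and 1830. Distal mandible replicate 3 at E11.5 had a median signal of 6.314, above the 6.125 to 6.151 of the other 5 distal arrays of that age, and without it the split was 2846 and 1967. Distal mandible replicate 2 at E11.5 stood apart in contractile genes and others. Myl4 was at 9.25 there against 6.61 and 6.64 on the other 2 arrays, and Stmn2 at 9.32 against 7.20 and 6.62. Sfrp4 was at 9.35 against 6.89 and 6.78, and Dsc3 at 9.44 against 8.11 and 7.77. Distal mandible at E11.5 had the largest median SD of the 20 groups, 0.1441. Without replicate 2 the E12.5 minus E11.5 difference was called for 4464 genes, 1935 more positive and 2529 more negative. The 2 ages lie in different batches, so a shift added to a whole batch cancels in these values but a change of scale does not.

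Hand2 differed by 5.75 at E12.5 and by 7.79 at E11.5, and the change of -2.05 was called (adjusted p = 3.2e-14). Dlx5 and Dlx6, whose differences of 0.00 and 0.18 at E12.5 were not called, were higher in distal mandible by 1.43 and 2.49 at E11.5, and both changes were called. Cited1 was higher by 0.83 at E12.5 and 3.80 at E11.5. For the cascade as a whole 9 of 13 were higher at E11.5 (median 1.18), and 7 of 13 had a smaller or more negative difference at E12.5. Foxl2 was lower in distal mandible at both ages, with differences of -4.18 at E12.5 and -2.94 at E11.5 (called change of -1.24). Foxl2os was not shown to be present in distal mandible at either age, and averaged 9.21 in distal maxilla at E12.5 and 8.85 at E11.5.

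Ibsp and Panx3 had group means under the limit in both distal jaws at E11.5 (Panx3 reached 5.07 on distal mandible replicate 2), so their differences at E12.5 rest on distal mandible arrays of that age. Scin and Tspan8 likewise had group means under the limit in both distal jaws at E11.5. Insyn2b was not called at E11.5 (difference 0.02), and its change to E12.5 was called. Epithelium changed direction: at E11.5, 11 of the 18 genes were lower in distal mandible (median -0.34), and 17 of 18 had a more positive difference at E12.5 (median 1.42). Dkk4, a Wnt antagonist of placodes, was 7.54 in distal mandible and 6.39 in distal maxilla at E12.5, but 5.72 in distal mandible and 9.13 in distal maxilla at E11.5.

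Muscle changed direction the other way. At E11.5, 20 of the 22 genes were higher in distal mandible (median 2.28), and the change to E12.5 was negative and called for all 22 (median -5.60). Over all genes 14.46% were higher in distal mandible at E11.5 and 12.9% had a negative change that was called. Myf5 averaged 4.88 in distal mandible and 8.47 in distal maxilla at E12.5, against 8.94 in distal mandible and 4.70 in distal maxilla at E11.5. The list medians of the distal mandible arrays lay between 6.80 and 6.89 at E12.5 and farther apart, between 7.52 and 8.44, at E11.5.

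Over the 5 ages the E12.5 distal mandible arrays broke the order for muscle. The list median in distal mandible was 6.29, 7.87, 6.83, 8.61 and 10.14 in daily steps from E10.5 to E14.5, so its E12.5 level lay below that of the age on either side. In distal maxilla it was 5.87, 6.14, 8.88, 9.73 and 9.66 at the same ages. Surface epithelium in distal mandible was 9.29, 9.33, 9.95, 9.92 and 10.452, and in distal maxilla 9.18, 9.54, 8.86, 9.56 and 10.4, with the low value at E12.5 in maxilla. Cartilage genes stood at 7.73 in distal mandible and 6.54 in distal maxilla at E12.5 but at 7.05 in distal mandible and 8.71 in distal maxilla at E13.5. Bone genes stood at 7.84 in distal mandible and 5.78 in distal maxilla at E12.5, and at 10.01 in distal mandible and 10.34 in distal maxilla at E14.5. Distal mandible changes batch between E11.5 and E12.5 (batch 3, then 2) and again by E13.5 (batch 1). Age and batch therefore cannot be told apart in these levels, and no test was made of them. Distal maxilla from E12.5 to E14.5 lies in batch 2 throughout. The jaws themselves lie in different batches at E13.5 and E14.5 (mandible 1, maxilla 2) and at E10.5 (mandible 3, maxilla 4). At those ages jaw and batch cannot be told apart either. For bone at E14.5 the distal mandible arrays (9.55 to 10.62) spanned those of distal maxilla (10.27 to 10.46).

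**Figure D5:**
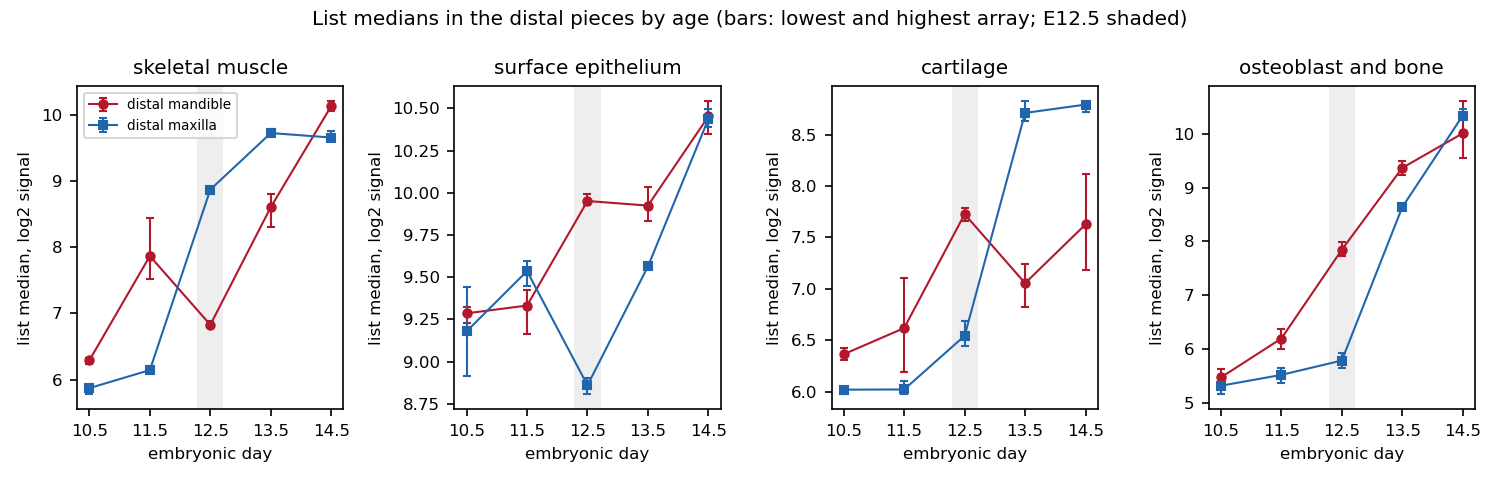
Median log2 signal of 4 gene lists (vertical) in distal mandible (circles) and distal maxilla (squares) by embryonic day (horizontal); points are the mean over 3 arrays and bars run from the lowest to the highest array, with E12.5 shaded. At E12.5 muscle is low and epithelium, cartilage and bone are high in mandible relative to maxilla, and in all 4 lists the curves of the jaws cross between at least 1 pair of neighbouring ages.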

How the data were processed

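The values were log2 signals from Affymetrix arrays as the authors deposited them, made with RMA per the submitters' processing notes. The sources used here give no version. RMA corrects background, normalizes between arrays and summarises probes. They were used without further normalization, and ran from 2.542 to 14.812. No hybridisation depth applies: 3 arrays per group limit the precision.

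Of 45101 probe sets, 64 controls were left out. The platform annotation gave 34945 probe sets 1 symbol, 932 several and 9160 none, and the last 2 kinds were not assigned. Of the 34945, 34741 matched a RefSeq gene. The probe set that was brightest on average across the 60 arrays represented each of 18193 genes, 9010 of which had more than 1.

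Groups came from the titles. All 60 arrays entered 1 fit in R 4.3.3 with limma 3.58.1 (lmFit, a mean per group, 40 residual degrees of freedom; eBayes with trend; two-sided; Benjamini-Hochberg over all genes). A gene was called at an adjusted p under 0.05. The step was tested on simulated data.

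Contrasts were the distal jaws at E12.5, that difference minus the proximal one, and minus that at E11.5. Proximal and E11.5 differences shown alone come from the same fit. Named were the 12 called genes of largest difference per direction (mean of at least log2 6 in the higher group, no predicted model, no sex-linked gene, arrays not overlapping), the next 15 by symbol, 5 per direction for each difference of differences, and per list up to 6 called members of smallest p; others are said to be chosen later. Exceptions are all genes of the endothelin and upper-jaw lists. The members and the 31 lists (15 of pathways, 16 of cell types; 423 of 453 genes measured) were chosen with earlier results of these data known.

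Replicate numbers are shared by the jaws. The correlation of deviations for same-numbered arrays was 0.0451, -0.0108 and -0.008, so the numbers were not taken to pair the arrays. Alternatives were another normalization or centring, a filter on dim genes (every group mean under 6.153), other handling of probe sets, fits on fewer arrays, eBayes without trend or robust, array weights, the replicate block and leaving out each array. Promoters came from RefSeq windows in GRCm38.p6.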

Additional observations from a re-analysis of the deposited data

Results flagged for a closer look

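Results were taken up here because the jaw difference itself differed, by a contrast in the limma fit, between the distal and proximal pieces at E12.5 or between E12.5 and E11.5 in the distal pieces. Each of the 20 values below passed an adjusted p under 0.05, as did 33.4% and 24.9% of all genes in these contrasts, and each was chosen as among the 5 largest in its direction.

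Genes more positive distally included Prrxl1, Isl1 and Pou4f1, transcription factors of sensory neurons. The distal minus proximal value was 5.81 for Prrxl1, 5.46 for Isl1, 5.40 for Ppp1r17, 5.19 for Pou4f1 and 5.12 for Ppp1r1c. All but Isl1 had no called distal difference (Ppp1r17 was under the limit of 4.781 in both distal jaws), while the proximal jaws differed by -5.79 for Prrxl1, -3.49 for Isl1, -5.48 for Ppp1r17, -5.19 for Pou4f1 and -5.17 for Ppp1r1c. Pou4f1, a factor of sensory ganglia, averaged 5.97 in proximal mandible and 11.2 in proximal maxilla. Isl1 was higher in distal mandible (8.92) than in distal maxilla (6.95) but lower in proximal mandible (9.51) than in proximal maxilla (13.0).

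Genes more negative distally were the muscle genes Myl4 (-5.41), Tnnt2 (-5.30) and Tnnc2 (-5.29), and also Oc90 (-5.18) and C1qtnf3 (-5.02). Myl4 differed by -4.00 distally and 1.41 proximally. Oc90, a protein of inner ear otoconia, averaged 5.79 in distal mandible and 5.87 in distal maxilla, against 11.1 in proximal mandible and 6.00 in proximal maxilla. C1qtnf3, expressed in cartilage, averaged 9.93 in proximal mandible and was not shown to be present in the other 3 groups at E12.5.

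Between ages, the E12.5 minus E11.5 value was 5.31 for Ibsp, 4.56 for Dkk4, 3.35 for Panx3, 3.28 for Stmn2 and 3.05 for Hey2. Ibsp and Panx3 were not shown to be present in distal maxilla at E12.5 or in either distal jaw at E11.5, so their values and rank rest partly on differences under the limit. Stmn2, a neuronal tubulin-binding protein, was not called at E12.5 (10.52 in distal mandible and 10.004 in distal maxilla) and was lower in distal mandible at E11.5 (7.71 in distal mandible, SD 1.42, against 10.47 in distal maxilla). Hey2 was higher in distal mandible by 2.19 at E12.5 and lower by 0.86 at E11.5. The most negative values were -7.82 for Myf5, -7.02 for Myl4, -6.78 for Actc1, -6.72 for Myl1 and -6.69 for Myh3. Myf5, Myl4 and Myh3 averaged 4.70, 4.48 and 4.68 in distal maxilla at E11.5, under that limit, so their exact values and rank are not settled. Actc1, the actin of embryonic muscle and heart, averaged 10.02 in distal mandible and 13.1 in distal maxilla at E12.5, against 11.7 in distal mandible and 8.02 in distal maxilla at E11.5. Myl4 had an SD of 0.18 among the 3 distal mandible arrays at E12.5 and of 1.52 at E11.5, where replicate 2 stood apart at 9.25 against 6.61 and 6.64. Without that array the values were -6.14 for Myl4, -6.42 for Actc1, -6.02 for Myl1, -5.94 for Myh3, -8.00 for Myf5 and 4.08 for Stmn2, all still called.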

How the results depend on the processing

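The count of called genes between the distal jaws moved by over 1.5 times in 3 of 11 other settings: it was 6505 with every probe set as a unit (34945 tested), 6370 with only the 6 arrays in the fit and 6827 with array quality weights, against 4216. Every probe set as a unit also gave 9575 calls for distal against proximal and 7195 for E12.5 against E11.5. Leaving out 1 array gave 3450 to 3624 calls, 477 to 490 at 2-fold, 5589 to 6048 for distal against proximal and 4018 to 4813 for E12.5 against E11.5. With the replicate number as a block the counts were 4114, 478, 6003 and 4509. Counts of called genes within the lists also moved. The number of list counts that moved was 14 with only the 6 arrays, 10 with only batch 2 and 5 with array quality weights. Leaving out 1 array moved 3 to 7 of them. Averaging a gene's probe sets moved 2, and centring, eBayes without trend and the block moved 1 each. The higher and lower counts per list therefore depend in part on the setting. No named gene reversed under any setting run, but several settings could not change a sign. Fits on only the arrays compared or on batch 2, eBayes without trend or robust, and the dim-gene filter left each difference as it was. With every probe set as a unit, a gene was still read from its chosen probe set. The second probe set of Acta2, which ran the other way, was therefore not counted there. Calls were lost for at most 8 of 183 genes in a setting that kept all arrays and 61 of 1098 results over the 6 omissions; the block ended 1 call. Dlx4 was lost under 8 settings, 5 of them omissions of an array. Repeated quantile normalization split the E12.5 against E11.5 calls 2878 and 2079. Levels near 4.781 have no tested presence, and differences between the ages rest on 2 batches.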

Other observations

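The lists here were chosen after the values of their genes were seen and carry no test of their own. Genes of the desmosome and the cornified envelope, which join and armour epithelial cells, were higher in distal mandible for 11 of 12 (median 1.38, against 12.3% of all genes called higher), and 8 of 12 had a more positive difference distally than proximally. In the proximal jaws 8 of the 12 were higher and 1 lower in mandible, with Dsc2 higher by 0.94 and Dsg2 by 0.65. Dsc2 averaged 9.54 in distal mandible and 7.22 in distal maxilla, Dsg2 10.9 in distal mandible and 8.67 in distal maxilla, and Pkp1 9.75 in distal mandible and 7.96 in distal maxilla. Dsc1 was not shown to be present in either group, nor Dsg1a in distal maxilla.

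Of 7 genes of enamel matrix, Ambn was higher, and Odam too (0.54), though the level of Odam was under the limit in both jaws; Amelx averaged 5.43 in distal mandible and 5.44 in distal maxilla. Afp was accompanied by Alb, which averaged 5.64 in distal mandible and 4.77 in distal maxilla, where it was not shown to be present (difference 0.87, adjusted p = 0.00013), while Apoa1, Apoa2, Apoa4, Apob and Ttr were not called. Of 7 Hoxd genes Hoxd1, Hoxd3 and Hoxd8 were lower in distal mandible; Hoxd8 differed by -0.95 distally and by 2.97 proximally, and Hoxd10 and Hoxd11 were under the limit. Of 7 neutrophil granule genes 4 were lower in distal mandible, with differences of -1.69 for S100a8 and -1.63 for S100a9. Tnfsf11, the osteoclast differentiation ligand, averaged 6.80 in distal mandible and 4.62 in distal maxilla, under the limit, and the protease Mmp9 7.29 in distal mandible and 5.87 in distal maxilla, whereas the osteoclast protease Ctsk averaged 8.15 in distal mandible and 9.11 in distal maxilla. Cga, the common hormone subunit of the pituitary, averaged 5.28 in distal mandible and 7.45 in distal maxilla, and was the pituitary gene with the largest difference of the 6 measured. Pomc went the other way, higher in distal mandible by 0.27 (adjusted p = 0.030 in limma). The pituitary genes Gh, Prl, Tshb and Lhx3 were not called.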
